A study of Mus musculus with 7 samples.

Results

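The costimulatory TNF receptor genes of T cells were examined in splenic Tregs of aged and young mice. The group was fixed by gene name and has 9 members, namely Tnfrsf1a, Tnfrsf1b, Tnfrsf4, Tnfrsf8, Tnfrsf9, Tnfrsf18, Tnfrsf25, Cd27 and Fas. All 9 were found among the 47729 genes of the count files, and all 9 passed the filter on low counts, which left 13904 genes to test. CD4+CD25+ splenocytes of wild-type male C57BL/6 mice were isolated with magnetic beads, which select for both surface markers but not for Foxp3, and the RNA of 3 aged mice (18 months by the labels) and 4 young mice (8 weeks by the labels; the methods of the study give a slightly older age) was sequenced. The labels give no treatment or transgene for either age and call the replicates biological. All 7 libraries were made with the SMART-Seq v4 kit, which amplifies small amounts of RNA without molecular identifiers. Levels are counts scaled to library size on the TMM scale (CPM). A gene is called higher or lower in aged Tregs where edgeR's quasi-likelihood test, adjusted over all genes tested, gave a p under 0.05, and every adjusted p below is from that test.

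TNF receptors are membrane proteins that bind trimeric ligands of the TNF family. Most members carry a short cytoplasmic tail that recruits TRAF adaptor proteins and, through them, NF-kB and MAP kinases. TNFR2, OX40, CD30, 4-1BB, GITR and CD27 are of this kind and act on T cells as costimulators beside the antigen receptor. TNFR1, DR3 and Fas carry instead a death domain, which can recruit TRADD or FADD, and in the case of Fas leads to caspase-8 and apoptosis. Tregs are known for high surface levels of GITR, OX40, TNFR2 and 4-1BB, and ligation of these receptors can expand Tregs or change their suppressive activity.

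Of the 9 receptor genes, Tnfrsf1b and Tnfrsf9 were higher in aged Tregs and the other 7 were not called. The background was 16.7% of all genes tested called in either direction, 9.8% called higher in aged Tregs and 6.94% called lower, so 2 of 9 (22.2%) was close to the background. The log2 fold changes of 8 of the 9 were above 0 (all 9 without aged replicate 1 or aged replicate 3). With all 7 libraries the median was 0.49 over the 9 members against 0.02 over all genes tested. The 6 members without a death domain ran from 0.27 to 0.81, and the 3 with one from -0.05 to 0.20; this grouping was made with the values known and was not tested. The count moved with single libraries: 5 members were called without young replicate 2 (14.5% of all genes in that fit), 1 without young replicate 1, 3 or 4 (9.03% to 9.58%), and 0 without aged replicate 3 (8.9%), a fit in which 4 members had an unadjusted p under 0.05. DESeq2 called 6 members and 27.4% of all genes after the same filter on low counts. Run on every gene with a count, which was added after the data were seen, it called 2 members and 11.4% of all genes. Scaling libraries to their Foxp3 reads, also added later, moved all genes together, with a median log2 fold change of -0.18. Tnfrsf1b was then at 0.59 and Tnfrsf9 at 0.68, neither was called, and 2 members had an unadjusted p under 0.05. Tnfrsf1a was at -0.10, above that median.

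**Figure D1:**
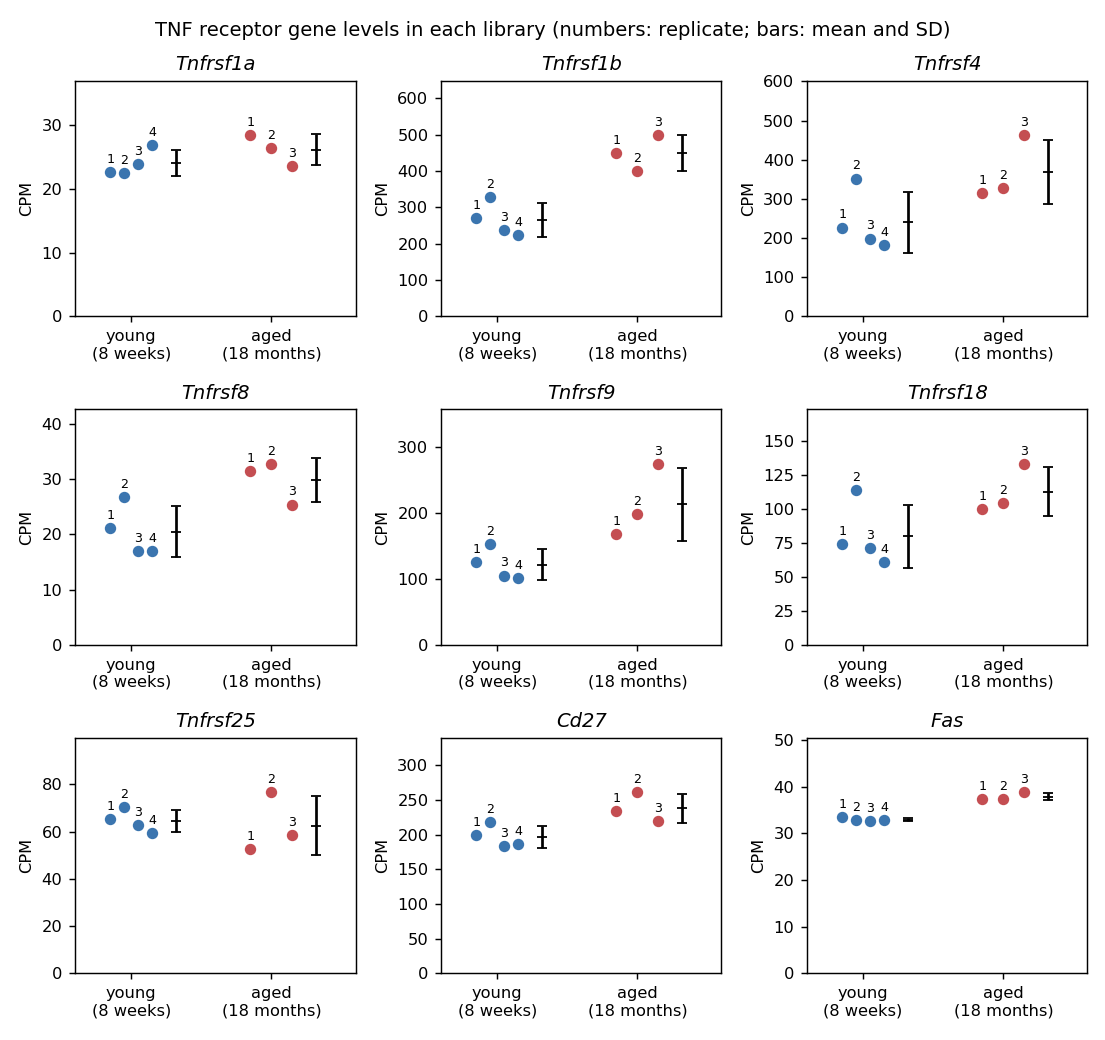
Level of each TNF receptor gene in CPM (vertical axis, from 0) in the 4 young and 3 aged libraries; points are libraries, numbered by replicate, and bars give the mean and SD of an age. For Tnfrsf1b, Tnfrsf9, Cd27 and Fas each aged point lies above each young point, and for Tnfrsf4 and Tnfrsf18 young replicate 2 lies above aged replicates 1 and 2.

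The aged libraries held 10734234 to 11244060 reads counted on genes and the young libraries 12039894 to 13649310, so each young library was deeper than each aged one. A further 13.1% to 20.9% of reads could not be given to a single gene. Foxp3, the lineage factor of Tregs, was at 446 to 621 CPM in aged and 393 to 517 CPM in young libraries. Il2ra, which encodes CD25, was at 326 to 479.8 CPM and 470.2 to 683 CPM, and Cd4 at 433 to 445 CPM and 492 to 632 CPM. Markers of other cells were also read. The summed level of 8 neutrophil genes, of which 4 were called higher in aged Tregs, was 679 to 5276 CPM in aged and 261 to 933 CPM in young libraries. The sum of 6 plasma cell genes was 701 to 1258 CPM and 308 to 1973 CPM, and that of 9 monocyte or macrophage genes, of which 3 were called lower, 405 to 556 CPM and 522 to 612 CPM. The sum of 5 platelet genes was 20.1 to 39.4 CPM in aged and 8.18 to 17.2 CPM in young libraries, without overlap, and of 8 dendritic cell genes, summing to at most 138 CPM in a library, 1 was called higher and 3 lower. Of 8 Treg genes, Gpr83 and Lrrc32 were called lower in aged Tregs (log2 fold change -1.71 and -1.02). That is 25% called, against 16.7% of all genes tested. The log2 fold changes of 5 of the 8 were above 0, with a median of 0.13. Their summed levels were 2839 to 3342 CPM in aged and 2274 to 3678 CPM in young libraries. Of 8 T cell genes, on which an alternative scaling rests, Cd3e was called higher and Cd5 lower, also 25%. Haemoglobin genes took 1.24% to 13.1% of the reads on genes, with overlap between the ages, and mitochondrial genes 5.08% to 10.7% in aged and 2.63% to 3.23% in young libraries. No marker of these lists was at or under 3 counts in every library. In bulk RNA, more cells of a type and more RNA per cell cannot be told apart. The part of these cells and reads in the results below was not tested. Young replicate 2 stood apart from the other young libraries with the highest level of 7 of the 9 receptor genes and the highest plasma cell, Treg and T cell sums of all 7 libraries, and where a call of a receptor gene changes without it, the value without it is given.

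The upstream windows of the called receptor genes, and of the neighbouring pair Tnfrsf4 and Tnfrsf18, are shown because NF-kB, which acts downstream of these receptors, binds DNA at kappa B sites. Each line gives the 250 bases before an annotated start, 5′ to 3′ on the strand of the gene, from RefSeq on GRCm38.p6. Capitals mark matches to GGGNNNNNCC on either strand, overlapping matches included. The windows are Tnfrsf1b on the minus strand at chr4:145246871-145247120, both starts of Tnfrsf9 on the plus strand at chr4:150919905-150920154 and chr4:150927749-150927998, Tnfrsf4 on the plus strand at chr4:156013445-156013694, and Tnfrsf18 on the plus strand at chr4:156026072-156026321.
Tnfrsf1b: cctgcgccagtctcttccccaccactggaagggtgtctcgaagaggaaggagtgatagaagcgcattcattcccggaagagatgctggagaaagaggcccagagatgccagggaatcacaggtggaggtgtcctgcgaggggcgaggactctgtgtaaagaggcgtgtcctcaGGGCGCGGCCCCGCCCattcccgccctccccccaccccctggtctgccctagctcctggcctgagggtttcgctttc
Tnfrsf9, start 1: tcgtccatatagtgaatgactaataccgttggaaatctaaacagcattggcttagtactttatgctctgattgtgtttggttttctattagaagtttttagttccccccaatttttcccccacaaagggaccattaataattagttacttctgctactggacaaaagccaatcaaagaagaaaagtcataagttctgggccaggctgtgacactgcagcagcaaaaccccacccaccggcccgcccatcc
Tnfrsf9, start 2: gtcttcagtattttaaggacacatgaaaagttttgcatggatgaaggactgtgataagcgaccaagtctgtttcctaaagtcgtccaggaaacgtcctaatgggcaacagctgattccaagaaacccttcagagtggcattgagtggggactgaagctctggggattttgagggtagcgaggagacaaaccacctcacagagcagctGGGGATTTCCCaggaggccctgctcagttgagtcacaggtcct
Tnfrsf4: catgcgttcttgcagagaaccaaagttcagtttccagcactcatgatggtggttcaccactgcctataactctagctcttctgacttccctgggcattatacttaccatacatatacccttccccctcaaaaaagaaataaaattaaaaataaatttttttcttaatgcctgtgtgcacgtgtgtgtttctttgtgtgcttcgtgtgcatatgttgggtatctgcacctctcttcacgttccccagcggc
Tnfrsf18: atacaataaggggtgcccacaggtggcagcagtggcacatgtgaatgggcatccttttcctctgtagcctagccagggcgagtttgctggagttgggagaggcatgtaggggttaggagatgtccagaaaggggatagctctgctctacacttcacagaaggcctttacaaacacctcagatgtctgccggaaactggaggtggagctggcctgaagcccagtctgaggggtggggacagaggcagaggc
The window of Tnfrsf1b held 3 overlapping matches 71 to 77 bases before the start. Over its 250 bases this window was 62.8% GC, against a median of 52.4% over all windows. The second start of Tnfrsf9 held 2 overlapping matches, 42 and 43 bases before it, and the first start held none. The windows of Tnfrsf4 and Tnfrsf18 held none. The windows refer to RefSeq starts, which for Tnfrsf4, Tnfrsf18 and Tnfrsf9 differ from the gene starts of GENCODE M21 given below, and for Tnfrsf4 no M21 transcript begins at the RefSeq start. Over the 11 windows of the 9 members, 8 held a match, against 45.8% of all 32851 windows of this length in RefSeq. Of the 9 members, 7 held a match in a window, among them Tnfrsf1a, Tnfrsf8, Tnfrsf25, Cd27 and Fas, which were not called. A match to these letters is common and is not a measured binding site.

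Tnfrsf1b (ENSMUSG00000028599) encodes TNFR2, the receptor for membrane-bound TNF on Tregs, and lies on chromosome 4 from 145213463 to 145246870 (GRCm38, GENCODE M21). Aged replicates 1 to 3 had 449.9, 401 and 498 CPM of it, and young replicates 1 to 4 had 269.8, 329, 238 and 223 CPM. The lowest aged library was above the highest young one, and young replicate 2 was nearest to the aged range. The log2 fold change was 0.76, with a 95% interval of 0.41 to 1.11, a standard error of 0.153 and an adjusted p of 0.0135. An exact two-sided permutation test gave p = 0.0571, the smallest p that 3 against 4 libraries allow. The call held when any 1 library but aged replicate 3 was left out, and without that library the log2 fold change was 0.69 and the adjusted p was 0.0506. Neutrophils also express this receptor. The neutrophil sums were 5276, 1879 and 679 CPM in aged replicates 1 to 3, and 594, 261, 933 and 419.6 CPM in young replicates 1 to 4, and their part in the rise was not tested.

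Tnfrsf1a (ENSMUSG00000030341), on chromosome 6 from 125349362 to 125362484, encodes TNFR1, the death domain receptor for soluble TNF found on most cells. Its levels were 28.3, 26.4 and 23.5 CPM in aged libraries and 22.7, 22.5, 23.9 and 26.9 CPM in young libraries, with overlap between the ages. The log2 fold change was 0.12 (95% interval -0.15 to 0.39, adjusted p = 0.517), so a rise of the size seen for Tnfrsf1b lay outside the interval. The ratio of Tnfrsf1b to Tnfrsf1a reads does not depend on how a library is scaled. It was 15.9, 15.2 and 21.2 in the aged libraries and 11.9, 14.6, 9.96 and 8.30 in the young libraries. No aged ratio fell into the young range, although aged replicate 2 and young replicate 2 lay close together. The mean was 17.4 ± 3.27 (SD, n = 3) against 11.2 ± 2.72 (SD, n = 4), a difference of 0.65 on the log2 scale, with p = 0.0571 from an exact two-sided permutation test, again the smallest possible.

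Tnfrsf9 (ENSMUSG00000028965) encodes 4-1BB, a costimulatory receptor induced by antigen receptor signals, and lies on chromosome 4 from 150914562 to 150946102. Its levels were 167, 198 and 274 CPM in the aged libraries and 125, 153, 105 and 101 CPM in the young libraries. The ages did not overlap, but aged replicate 1 was nearer to young replicate 2 than to aged replicate 3. Its log2 fold change, the largest of the 9 genes, was 0.81, with a 95% interval of 0.36 to 1.27, a standard error of 0.198 and an adjusted p of 0.027. The call held in 3 of 7 cases when single libraries were left out. Leaving out aged replicate 3 brought the log2 fold change to 0.59 (adjusted p = 0.0866). It was also lost without young replicate 1, 3 or 4 (adjusted p = 0.0626, 0.0768 and 0.0751).

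Tnfrsf4 (ENSMUSG00000029075) and Tnfrsf18 (ENSMUSG00000041954) encode OX40 and GITR, which Tregs carry at high density, and lie 9552 bases apart on the plus strand of chromosome 4, from 156013843 to 156016612 and from 156026164 to 156028895. Tnfrsf4 was at 316, 329 and 462 CPM in aged and at 227, 352, 199 and 182 CPM in young libraries. Young replicate 2 was above 2 of the 3 aged libraries. Its log2 fold change was 0.62 (95% interval 0.07 to 1.17, adjusted p = 0.115). Tnfrsf18 was at 100.1, 104 and 133 CPM in aged and at 74.0, 114, 71.4 and 61.1 CPM in young libraries. Within each age its libraries stood in the same order as for Tnfrsf4, and young replicate 2 was again above aged replicates 1 and 2. The log2 fold change was 0.49 (95% interval 0.01 to 0.97, adjusted p = 0.144). Neither was called. Without young replicate 2 both were, with log2 fold changes of 0.86 (adjusted p = 0.0174) and 0.71 (adjusted p = 0.0168). Without aged replicate 3, the highest aged library for both, they were at 0.43 and 0.36 (adjusted p = 0.343 and 0.379), and leaving out any library other than young replicate 2 left both uncalled.

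The counts of Tnfrsf18 have a further limit. Of its exon length, 27.2% overlaps exons of Gm16008, a gene on the opposite strand, and counting did not use strand, so reads in the shared part could not be assigned to either. Gm16008 itself was called higher in aged Tregs (log2 fold change 1.53, standard error 0.394, adjusted p = 0.033). Gm37090, which lies between Tnfrsf4 and Tnfrsf18 on the minus strand, was also called higher (1.08, standard error 0.238, adjusted p = 0.0191). Both are named because they lie within 50 kb of a receptor gene and were called.

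Tnfrsf8 (ENSMUSG00000028602), on chromosome 4 from 145267137 to 145315164, encodes CD30, a receptor of activated lymphocytes. Its gene lies 20267 bases from Tnfrsf1b on the same strand. The levels were 31.4, 32.8 and 25.4 CPM in aged and 21.1, 26.8, 17.0 and 17.0 CPM in young libraries. Aged replicate 3 lay below young replicate 2, the only overlap between the ages. The log2 fold change of 0.54 (95% interval 0.12 to 0.97, adjusted p = 0.0791) was not called. Without young replicate 2 it was 0.70 and was called (adjusted p = 0.0233). In the other 6 cases it was at 0.46 to 0.65 and was not called, with adjusted p-values of 0.0913 to 0.179.

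Cd27 (ENSMUSG00000030336), on chromosome 6 from 125232622 to 125237010, encodes a receptor that naive T cells already carry and that sustains their survival. It was at 233, 261 and 219.5 CPM in aged and at 199, 218, 183 and 187 CPM in young libraries. The ages did not overlap, but aged replicate 3 was barely above young replicate 2. The log2 fold change was 0.27 (95% interval 0.03 to 0.52, adjusted p = 0.114) and was not called.

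Fas (ENSMUSG00000024778), on chromosome 19 from 34290666 to 34327772, encodes the death receptor that limits activated lymphocytes. It varied least within an age, with 37.3, 37.4 and 38.8 CPM in aged and 33.4, 32.7, 32.6 and 32.8 CPM in young libraries. All aged libraries were above all young ones. The difference was small, with a log2 fold change of 0.20 (95% interval 0.01 to 0.39, standard error 0.0835), and was not called (adjusted p = 0.134). Tnfrsf25 (ENSMUSG00000024793), on chromosome 4 from 152115934 to 152120119, encodes DR3, the receptor for TL1A. Its levels were 52.5, 76.7 and 58.5 CPM in aged and 65.4, 70.4, 62.8 and 59.4 CPM in young libraries. All young values lay inside the aged range, and the log2 fold change of -0.05 (95% interval -0.36 to 0.27, adjusted p = 0.856) was the only one below 0. It turned to above 0, at most 0.06, without aged replicate 1 or aged replicate 3.

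In 4 of the 9 genes (Tnfrsf1b, Tnfrsf9, Cd27 and Fas) the values of the ages did not overlap, with aged Tregs higher in each. Over all genes tested 29.9% did not overlap and 15.5% did so with aged Tregs higher. In 7 members the unadjusted p was under 0.05, against 32.7% of all genes tested. That count was 3 without aged replicate 2, without young replicate 1, 3 or 4, and with library size alone. It was also 3 with the replicate number as a block, and 2 with scaling to Foxp3 reads. The 32.7% belongs to the main fit and not to these.

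**Figure D2:**
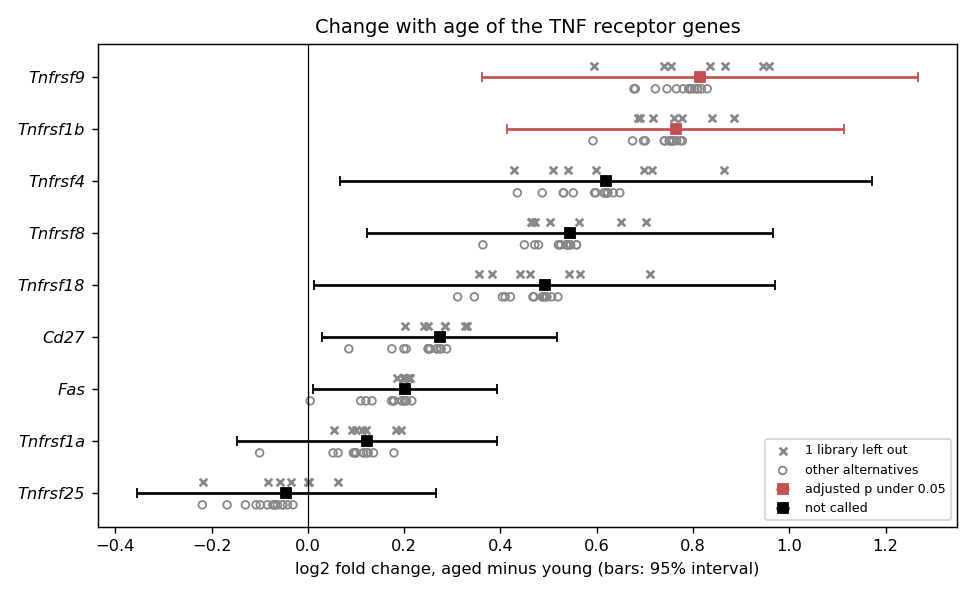
Log2 fold change (horizontal axis, aged minus young) of the 9 genes; squares give the estimate with its 95% interval, crosses the fits without 1 library and circles the other alternatives. Tnfrsf9 (0.81) and Tnfrsf1b (0.76) are the called genes, in red, and Tnfrsf25 (-0.05) is the only estimate below 0.

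The receptor genes also differed between libraries of the same age. Young replicate 2 had the highest level among the young libraries for Tnfrsf1b, Tnfrsf4, Tnfrsf8, Tnfrsf9, Tnfrsf18, Tnfrsf25 and Cd27, and young replicate 4 the lowest for 6 of these 7 genes, Cd27 excepted. Among aged libraries, replicate 3 was highest for Tnfrsf1b, Tnfrsf4, Tnfrsf9, Tnfrsf18 and Fas, and lowest for Tnfrsf1a, Tnfrsf8 and Cd27. Summed over the 9 genes, the levels were 1417, 1466 and 1733 CPM in aged and 1038, 1317, 933 and 891 CPM in young libraries. Effector Treg genes, a list of 12, were ordered much alike in the young libraries, with summed levels of 859, 1355, 772 and 638 CPM. This order was not particular to them, since the sum of the 8 Treg genes was 2955, 3678, 2611 and 2274 CPM there. In the aged libraries the effector Treg genes stood at 1902, 1459 and 1911 CPM. Aged replicate 1, lowest in the receptor sum, was thus not lowest in theirs. Of these 12 genes, 5 were called higher in aged Tregs, namely Itgae (log2 fold change 1.89), Tigit (1.58), Batf (1.00), Icos (0.92) and Prdm1 (1.20), which is 41.7% against 9.8% of all genes tested called higher. When single libraries were left out, the calls of Icos and Prdm1 held in 3 and 2 of 7 cases, with adjusted p-values of up to 0.0768 and 0.0972. Of 12 genes of resting T cells, 11 were called lower (91.7% against 6.94% of all genes tested called lower), among them Lef1 (-1.13), Dapl1 (-2.40), Satb1 (-1.43) and Bach2 (-1.19), while Il7r was at 0.25 and was not called. Both lists were chosen with earlier results of these data known, so their shares of called genes are not a test. The part of such states in the levels of the receptor genes was not tested.

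**Figure D3:**
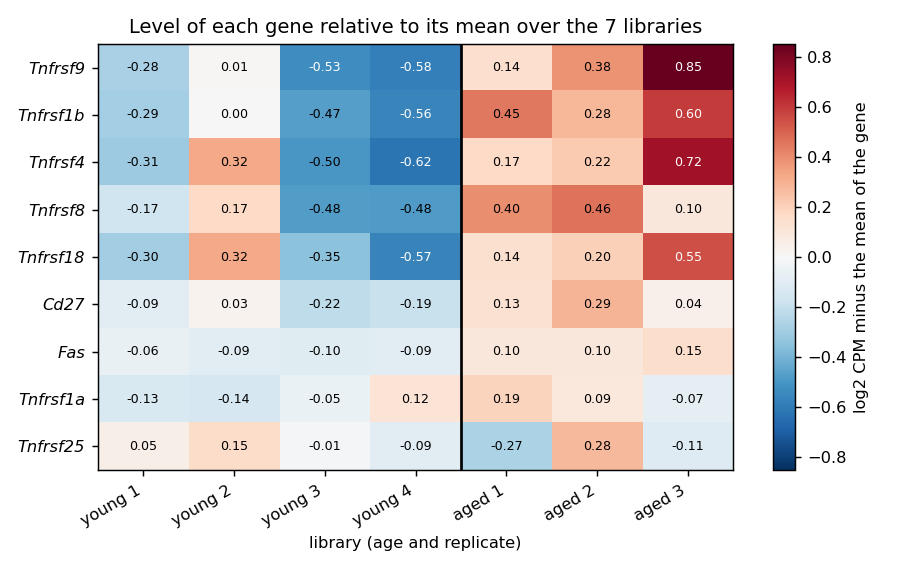
Log2 CPM of each gene minus its mean over the 7 libraries (colour and printed value), with libraries in columns and genes in rows ordered by log2 fold change. Young replicate 2 stands at 0.32 for both Tnfrsf4 and Tnfrsf18, above aged replicates 1 and 2, and aged replicate 3 at 0.85 for Tnfrsf9.

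Per kilobase of exon, Tnfrsf4 had the highest level of the 9 genes at both ages, with 270.3 ± 59.3 CPM per kb (SD, n = 3) in aged and 176 ± 56.3 (SD, n = 4) in young Tregs. No other member overlapped its range. In young Tregs Cd27 followed with 84.5, then Tnfrsf1b with 69.4, Tnfrsf18 with 52.5 and Tnfrsf9 with 44.5 CPM per kb, and each of these overlapped the next in range although the order was the same in all 4 libraries. In aged Tregs Tnfrsf1b, with 118 CPM per kb, stood before Cd27 with 102, Tnfrsf9 with 78.3 and Tnfrsf18 with 73.9, again with overlapping ranges, and the order of each pair held in 2 of 3 libraries. Tnfrsf25, Fas and Tnfrsf1a followed at both ages in this order, with separate ranges, at 27.5, 18.3 and 10.1 CPM per kb in aged and 28.3, 15.9 and 9.25 in young Tregs. Tnfrsf8 was lowest, with 8.63 and 5.92 CPM per kb, and overlapped Tnfrsf1a in aged Tregs only. The middle of this order depends on the length used, since 27.2% of the exon length of Tnfrsf18 and 5.54% of that of Cd27 are shared with other genes. Per kilobase of unshared exon, Tnfrsf18 was at 101 in aged Tregs, above Tnfrsf9, and at 72.1 in young Tregs, above Tnfrsf1b, while Cd27 was at 108 and 89.5. Without young replicate 2, Tnfrsf18 was at 62.0 per unshared kilobase in young Tregs, below Tnfrsf1b at 63.8. Without young replicate 2 the young mean of Tnfrsf4 was 149 ± 16.5 CPM per kb (SD, n = 3), and the order by full length was unchanged in young Tregs.

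Among the ligands of these receptors, Tnf, Tnfsf4 and Tnfsf8 were called higher in aged Tregs, of 6 tested (50% against 16.7% of all genes tested called and 9.8% called higher). Tnfsf8, the CD30 ligand gene, was the most abundant of the 3, at 76.9, 69.2 and 100.4 CPM in aged and 35.5, 47.1, 31.6 and 27.4 CPM in young libraries. Its lowest aged level was above its highest young level. The log2 fold change of 1.21 had a standard error of 0.196 and an adjusted p of 0.00572, and the call held whichever single library was left out. Tnf ranged from 15.8 to 18.6 CPM in aged and from 6.15 to 12.1 CPM in young libraries, without overlap. Its log2 fold change of 0.81 (adjusted p = 0.0395) was called without young replicate 3 (adjusted p = 0.0425) but lost without any other single library, with adjusted p-values of 0.0521 to 0.121. It was also lost with library size alone (0.0599), with scaling to T cell genes (0.0596) or Foxp3 reads (0.152) and with GC content and length trends removed (0.056). Tnfsf4, the OX40 ligand gene, had 30, 11 and 21 reads in aged and 9, 13, 10 and 11 reads in young libraries, a log2 fold change of 1.21 (adjusted p = 0.0437) that rests on few reads. It was lost with limma voom (adjusted p = 0.0679), limma on the deposited normalized counts (0.0675), no filter on low counts (0.0773), library size alone (0.0774), scaling to T cell genes (0.0685) or Foxp3 reads (0.118), GC content and length trends removed (0.0529), and DESeq2 on every gene with a count (0.0826). When single libraries were left out, it was called without aged replicate 2 (adjusted p = 0.024) and lost without any other single library, with adjusted p-values of 0.0681 to 0.118.

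The other ligands that passed the filter were not called by edgeR with all 7 libraries. Lta, which encodes lymphotoxin alpha, was at 23.5, 37.5 and 38.5 CPM in aged and 45.7, 52.9, 41.2 and 39.5 CPM in young libraries, each aged library below each young one, with a log2 fold change of -0.44 (adjusted p = 0.145). Without aged replicate 1, the lowest library, it was at -0.24, and it was called lower by DESeq2 after the filter (adjusted p = 0.0415) and with GC content and length trends removed (adjusted p = 0.0384). Tnfsf9, the 4-1BB ligand gene, was read 16, 33 and 30 times in aged and 25, 10, 10 and 8 times in young libraries (log2 fold change 1.25, adjusted p = 0.128). Without young replicate 1 the value was 1.85 and was called (adjusted p = 0.0348). Fasl, which encodes the ligand of Fas, was at 3.84, 7.94 and 5.88 CPM against 2.18, 4.69, 3.63 and 2.36 CPM (log2 fold change 0.86, adjusted p = 0.122), and young replicate 2 lay above aged replicate 1. DESeq2 after the filter called it (adjusted p = 0.0434). Tnfsf18, Tnfsf15 and Cd70, the ligand genes of GITR, DR3 and CD27, were under the filter on low counts. Cd70 was read 5, 6 and 9 times in aged and 1, 3, 2 and 2 times in young libraries. Tnfsf15 was read at most 9 times and Tnfsf18 at most 7 times in a library.

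**Figure D4:**
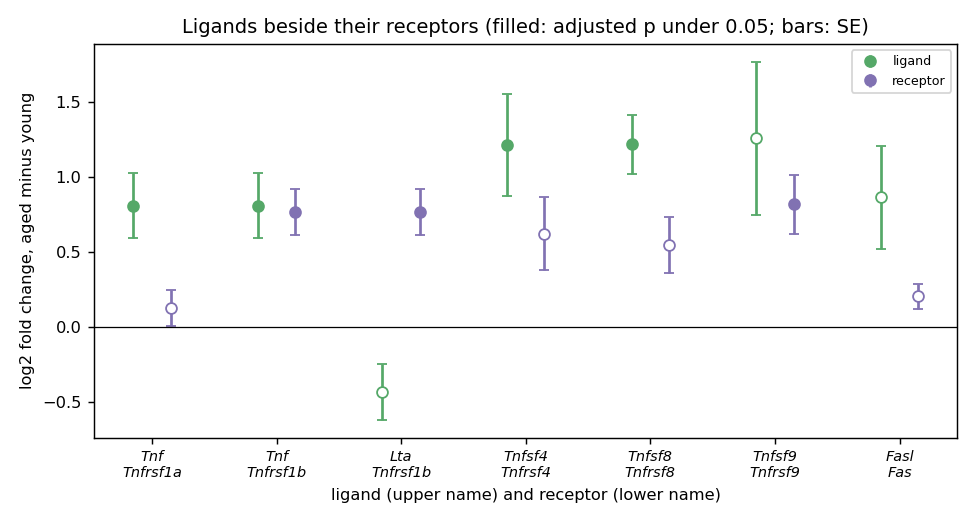
Log2 fold change (vertical axis, aged minus young) of each tested ligand, in green, beside a receptor that binds it, in purple; bars give the standard error and filled points are called. Tnf with Tnfrsf1b is the only pair with both points filled, and Lta (-0.44) is the only point below 0.

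Of 19 other genes of the receptor superfamily, 16 were tested and 1, Tnfrsf13c, was called, lower in aged Tregs (6.25% against 16.7% of all genes tested). Tnfrsf13c encodes the BAFF receptor of B cells and was at 27.6, 32.5 and 51.7 CPM in aged and 70.7, 57.0, 60.1 and 95.7 CPM in young libraries (log2 fold change -0.93, adjusted p = 0.0391), a call that held in 2 of 7 cases when single libraries were left out. The call was also lost with scaling to T cell genes (adjusted p = 0.0509) or to Foxp3 reads. The summed level of 8 B cell genes ran from 908 to 1674 CPM in aged and from 1346 to 2032 CPM in young libraries, and its part in this fall was not tested. Tnfrsf13b, which encodes the BAFF and APRIL receptor TACI and had the highest mean level of this list, was at 52.5 to 76.6 CPM in aged and 78.6 to 90.3 CPM in young libraries, without overlap, and was not called (log2 fold change -0.34, adjusted p = 0.13). Tnfrsf14, at 24.97 to 68.5 CPM, and Relt, at 32.0 to 57.0 CPM, were not called either.

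Of 24 adaptors and enzymes that act at the receptors, 4 were called higher and 1 lower, which is 20.8% against 16.7% of all genes tested. Traf1, an adaptor that binds TNFR2, 4-1BB and CD30 tails and is itself a target of NF-kB, had the smallest adjusted p of them (0.00396). Its mean level was 312 ± 6.89 CPM (SD, n = 3) in the aged libraries against 178 ± 24.1 CPM (SD, n = 4) in the young ones, with a log2 fold change of 0.81 and a standard error of 0.119. Birc2, which encodes the ubiquitin ligase cIAP1, rose by 0.75 (adjusted p = 0.00675). Cflar, the inhibitor of caspase-8, and Sharpin, a subunit of the linear ubiquitin ligase, rose by 0.37 and 0.35 (adjusted p = 0.0289 and 0.0364). Ripk1, the kinase at the TNFR1 complex, fell by 0.64 (adjusted p = 0.0357). The calls of Traf1 and Birc2 held whichever single library was left out, while those of Cflar, Sharpin and Ripk1 held in 2, 1 and 1 of the 7 cases. Cflar and Sharpin were also lost with library size alone (adjusted p = 0.147 and 0.125) and with no filter on low counts (0.0773 and 0.0955). Scaling to T cell genes ended the calls of Cflar, Sharpin and Ripk1 (adjusted p = 0.156, 0.158 and 0.0688). Scaling to Foxp3 reads ended those of Birc2, Cflar and Sharpin. Traf2, Traf3 and Traf6 had log2 fold changes of -0.07, -0.12 and -0.48 and were not called. Tnfaip3, which encodes A20, ranged from 266 to 769 CPM in aged and from 469 to 965 CPM in young libraries and was not called (-0.56, standard error 0.419, adjusted p = 0.396).

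Of 14 NF-kB genes, 2 were called higher and 1 lower, which is 21.4%, near the 16.7% of all genes tested. Nfkbid, a nuclear member of the IkB family, was at 85.4, 83.7 and 85.7 CPM in aged and 63.4, 52.1, 48.5 and 65.8 CPM in young libraries (log2 fold change 0.56, adjusted p = 0.0166). Relb, the subunit of the non-canonical pathway, rose by 0.42 (adjusted p = 0.0384), and Map3k14, which encodes its kinase NIK, fell by 0.45 (adjusted p = 0.0209). When single libraries were left out, the calls of Nfkbid, Relb and Map3k14 held in 6, 2 and 4 of 7 cases. Scaling to T cell genes ended the call of Nfkbid (adjusted p = 0.0745). Relb lost its call with library size alone (adjusted p = 0.14) and with no filter on low counts (0.0659). Scaling to Foxp3 reads ended each of these calls. Of the 4 genes of ectodomain shedding, by which TNF receptors are released from the surface, 1 was called (25% against 16.7% of all genes tested). This was Rhbdf1, higher in aged Tregs (log2 fold change 1.61, adjusted p = 0.00867). Its level was low, at 6.63 to 13.3 CPM in aged and 2.45 to 3.86 CPM in young libraries. Rhbdf2 was at 22.9 to 28.3 CPM and 18.0 to 32.6 CPM and was not called (log2 fold change 0.0006, adjusted p = 0.999). Adam17, the sheddase of both TNF receptors, was at -0.19 (adjusted p = 0.162) and Adam10 at -0.20 (adjusted p = 0.217).

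The genes whose profile over the 7 libraries was most like that of a called member were found by the root mean square difference of centred log2 CPM among 9535 genes. For Tnfrsf1b they were Zcchc18 (0.06), Cd86 (0.08) and Wls (0.08), and for Tnfrsf9 BC021614 (0.10), A430093F15Rik (0.10) and Sh3gl3 (0.12). Cd86, the gene of a ligand of CD28 and CTLA-4, was at 51.1, 49.6 and 51.7 CPM in aged and 29.2, 36.5, 27.4 and 26.3 CPM in young libraries. These 6 genes were picked for their likeness, and the difference between ages they share follows from it.

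Tnfrsf1b with Tnfrsf8, and Tnfrsf4 with Tnfrsf18, lie within 50 kb of each other. Within 50 kb of a member 20 other genes were tested, of which 5 were called higher and 1, Vps13d beside Tnfrsf1b, lower (log2 fold change -0.53, adjusted p = 0.038). The genes called higher were Gm16008 and Gm37090 near Tnfrsf4 and Tnfrsf18, Tuba3a (0.76, adjusted p = 0.0491) and 4930417O13Rik (0.73, adjusted p = 0.00927) near Cd27, and Acta2 (1.19, adjusted p = 0.0324) near Fas. That is 30% called against 16.7% of all genes tested. Camta1, whose gene overlaps most of Tnfrsf9 on the opposite strand, was at 0.55 (adjusted p = 0.139), and no exon of Tnfrsf9 overlaps an exon of another gene.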

How the data were processed

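RNA of splenic CD4+CD25+ cells was sequenced in 3 aged and 4 young mice. Replicates are labelled as biological. The authors deposited raw read counts per Ensembl gene for each library, in the layout of HTSeq-count (union mode, no strand). The authors also deposited a table of signal values, each the count divided by 1 size factor per library, with gene names and their own fold changes and p-values, which were not used. The submitters' processing notes name mm10. The aligner and annotation are not given in the sources used here. Reads not given to a single gene (13.1% to 20.9%) stayed out of library sizes.

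The quasi-likelihood test of edgeR 4.0.16 (R 4.3.3) was run on the counts after TMM scaling and filterByExpr by group, with no covariate and with Benjamini-Hochberg adjustment over all genes tested. The study names limma, which was an alternative (3.58.1), as was DESeq2 1.42.0. Each standard error is the log2 fold change divided by the root of its F. Log2 CPM used a prior count of 2. The limit of detection was 3 counts, and counting error alone is covered. Coordinates and exon lengths are from GENCODE M21 on GRCm38. The test was also run on simulated counts, and no result of that run is used here.

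The members and lists were chosen with earlier results of these data known. Named are the 9 members, their ligands, at most 5 called genes of each other list, Foxp3, Cd4 and Il2ra, the 3 tested genes most like each called member, and genes within 50 kb of a member by count and, where called, by name. Tnfrsf13b, Tnfrsf14, Relt, Gpr83, Lrrc32, Traf2, Traf3, Traf6, Tnfaip3, Adam10, Adam17, Rhbdf2, Il7r and Camta1 were named after their values were seen, as were the library sums. One gene that this rule names is not reported here. Alternatives were RLE or library size scaling, scaling to 8 T cell genes, other filters, removal of mitochondrial, immunoglobulin and haemoglobin genes, the deposited signal with 1 added, GC content and length trends removed, the replicate number as a block, and each library left out. Scaling to Foxp3 reads and DESeq2 on every gene with a count were added after the data were seen.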

Additional observations from a re-analysis of the deposited data

How the results depend on the processing

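Both called receptor genes, Tnfrsf1b and Tnfrsf9, kept their call under limma voom, limma on the deposited normalized counts, every scaling except that to Foxp3 reads, both other filters, removal of GC content and length trends, and DESeq2. DESeq2, run after the same filter, called 3804 genes and 6 members, adding Tnfrsf4 (log2 fold change 0.62), Tnfrsf8 (0.54), Tnfrsf18 (0.49) and Cd27 (0.27), with 5 ligands, 5 other receptors, 9 adaptors and 9 NF-kB genes. Run on every gene with a count, it called 2 members, 3 other receptors and 6 NF-kB genes.

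The other tests and scalings moved counts in the lists, which in the report were 3 ligands, 1 other receptor, 5 adaptors and 3 NF-kB genes. The NF-kB count was 5 with limma voom, with limma on the normalized counts and with GC content and length trends removed. It was 2 with library size alone and with scaling to T cell genes. The count of other receptors was 2 with limma on the normalized counts, with library size alone, with mitochondrial, immunoglobulin and haemoglobin genes left out, and with no filter on low counts. That of adaptors was 3 with library size alone and with no filter, and that of ligands was 1 with library size alone. Scaling to T cell genes gave 1546 genes, 1 ligand, 0 other receptors (5 at an unadjusted p under 0.05) and 2 adaptors.

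Scaling to Foxp3 reads, chosen after seeing the data, shifted the median log2 fold change of all genes to -0.18 and the share of calls that were higher from 58.5% to 39.1% (571 higher and 891 lower, 1462 genes). It gave 0 members (2 at an unadjusted p under 0.05), 1 ligand, 0 other receptors (4 unadjusted), 3 adaptors and 1 NF-kB gene. Tnfrsf1b was at 0.59 (adjusted p = 0.0734), Tnfrsf9 at 0.68 (adjusted p = 0.097), and Tnfrsf1a at -0.10, below 0 but above the shifted median of all genes.

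The ages share the replicate numbers 1 to 3, and the labels name no pairing of libraries. Deviations from the mean of an age correlated at -0.0915, -0.292 and -0.138 between libraries of equal number. These values show no likeness within a number, but so few libraries cannot exclude a pairing. With the replicate number as a block, edgeR called 292 genes, 0 members (3 unadjusted) and 0 genes in each of the 4 lists (5 ligands, 2 other receptors, 8 adaptors and 6 NF-kB genes unadjusted). Tnfrsf1b was at 0.70 and Tnfrsf9 at 0.72. With the block and GC content and length trends removed, 266 genes, 0 members (3 unadjusted) and 0 genes of each list were called, with Tnfrsf1b at 0.67 and Tnfrsf9 at 0.68. In this fit young replicate 4 has no partner.

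Leaving out each library in turn gave 1237 (without young replicate 4) to 3058 genes (without aged replicate 1), 0 to 5 members, 1 to 2 ligands, 0 to 1 other receptors, 2 to 8 adaptors and 1 to 5 NF-kB genes. The log2 fold changes ran from 0.69 to 0.88 for Tnfrsf1b, from 0.59 to 0.96 for Tnfrsf9, from 0.43 to 0.86 for Tnfrsf4, from 0.46 to 0.70 for Tnfrsf8 and from 0.36 to 0.71 for Tnfrsf18. Tnfrsf25 ran from -0.22 to 0.06 and was reversed without aged replicate 1 (0.0631) and aged replicate 3 (0.0034). The log2 difference in the ratio of Tnfrsf1b to Tnfrsf1a ran from 0.50 to 0.79. The cause of these changes was not tested. Depth limits Tnfsf4 and Tnfsf9, read at most 30 and 33 times in a library.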
